A study of Homo sapiens with 6 samples.

Results

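Genes that take up, methylate, conjugate and export arsenic were examined in NB4 cells after 6 h with arsenic trioxide. They were chosen by function and are 9 genes: the methyltransferase AS3MT, the channels AQP3 and AQP9, the exporters ABCC1, ABCC2 and ABCC4, and the transferases GSTP1, GSTO1 and MGST1. The deposited table lists 23858 genes, and 7 of the 9 have a row in it. AS3MT and AQP9 have no row there, so their expression was not analysed here, and only their promoter sequences were searched. NB4 is an established human cell line from acute promyelocytic leukaemia, with the PML-RARA fusion. Both groups were grown alike in culture medium with fetal bovine serum. One group, the control, is labelled only as control, and the other received arsenic trioxide, a drug against this leukaemia, for 6 h at a dose not given in the sources used here. Each group had 3 libraries of total RNA depleted of ribosomal RNA. The sources do not say whether the 3 were separate cultures, and the p-values therefore reflect the spread among these libraries alone, which may be technical.

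Arsenite enters cells largely through aquaglyceroporins, membrane channels that also carry glycerol and water, and arsenate enters through phosphate carriers. Inside the cell, trivalent arsenic binds thiols, can be methylated by AS3MT with S-adenosylmethionine as methyl donor, and can be bound to glutathione. Glutathione transferases take part in conjugation and in the reduction of methylated arsenic, and ATP-driven pumps of the ABCC family export glutathione conjugates. This traffic is known to affect how sensitive leukaemia cells are to the drug.

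The libraries held 19361333 to 22609019 reads, recovered from the deposited RPKM values (reads per unit of exon length, relative to the counted reads of each library). Of the promyelocyte markers listed, 6 of 7 had a row, with a summed level of 1039 to 1435 RPKM in control and 689 to 1041 RPKM in treated libraries. MPO, the granule peroxidase, made up most of it, at 808 to 1071 RPKM in control and 540.3 to 780 RPKM in treated libraries. In bulk RNA such as this, fewer cells of a type and less RNA per cell cannot be told apart. Summed markers of hepatocytes (3 of 5 listed genes) were 1.202 to 1.82 RPKM in control and 1.31 to 2.097 RPKM in treated libraries. Erythroid markers (1 of 5 listed) were at most 0.387 RPKM, the T cell list was represented only by CD3D at 3.04 to 4.22 RPKM, and no fibroblast marker (0 of 5) had a row. The part of these marker genes in the results was not tested. On the second principal component, with 15.2% of the variance, control replicate 1 (21.3) and arsenic trioxide replicate 3 (23.0) stood apart from the other 4 libraries (-14.8 to -6.85), so results are also given without these 2 libraries, as an alternative chosen after the data were seen.

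Among the 7 measured genes, GSTP1 rose 1.30-fold and AQP3 fell to 0.609 of its control level, while the other 5 did not pass the test. The call of AQP3 was close to the threshold and was lost when any 1 library was left out, while that of GSTP1 was kept. Of the 5 genes not called, MGST1 and ABCC2 also lay close to the threshold. The group means of ABCC1, ABCC4 and GSTO1 were 10.0%, 9.73% and 5.14% lower after treatment, with overlapping libraries. The test was limma-trend on log2 of RPKM + 1 over the 16803 genes whose mean reached 1 RPKM, called at a Benjamini-Hochberg adjusted p under 0.05. That scale understates changes of genes at a few RPKM, so log2 fold changes of low and high genes are not directly comparable. All 7 passed that filter, ABCC2 only through its controls. In the same fit 12.0% of all tested genes were called higher and 13.4% lower, so 1 higher and 1 lower of 7 is near the background. The treated libraries lay wholly above the controls for 2 of the 7 (GSTP1 and MGST1) and wholly below them for 2 (AQP3 and ABCC2), where 21.9% and 22.6% of all tested genes did so. Over all tested genes the median log2 fold change was -0.0033.

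**Figure D1:**
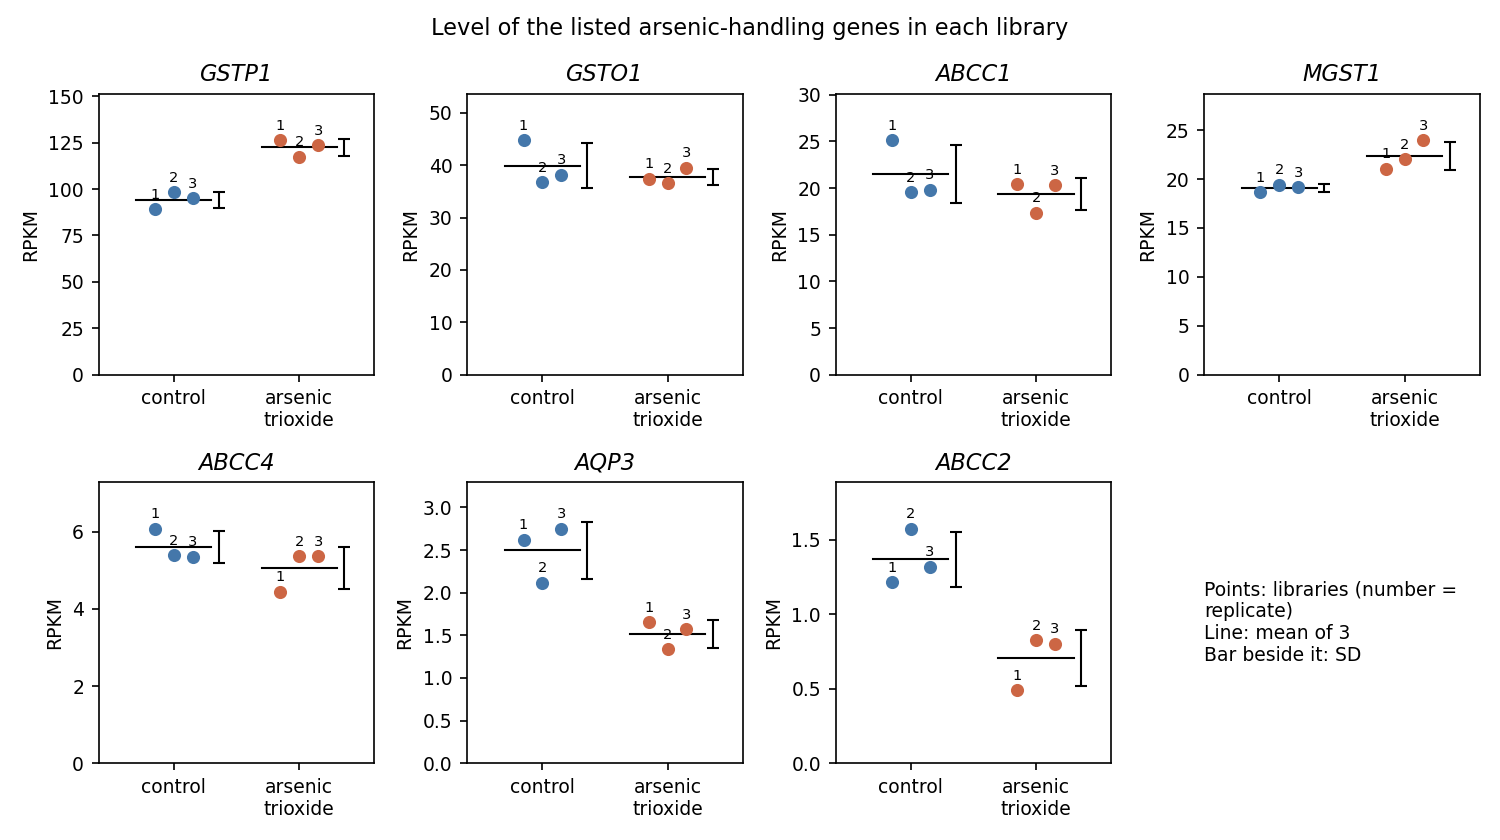
Level in RPKM (vertical axes from 0, each gene on its own scale) of the 7 measured genes in each control (blue) and arsenic trioxide (orange) library. Points are libraries numbered by replicate, lines are means of 3 and the bars beside them are SDs. The 3 treated libraries lie above the controls for GSTP1 and MGST1 and below them for AQP3 and ABCC2, and the groups overlap for GSTO1, ABCC1 and ABCC4.

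GSTP1, the pi-class cytosolic glutathione transferase, had the highest RPKM of the 7. It lies on the plus strand of chromosome 11 at 67583595 to 67586656 (GRCh38, GENCODE 29) and is protein-coding, as are the other 6. It measured 89.2, 98.2 and 94.9 RPKM in control replicates 1, 2 and 3 and 126, 117 and 124 RPKM in the arsenic trioxide replicates, from 3450 to 5390 reads per library. The groups were thus clearly apart, with 94.1 ± 4.55 RPKM in control and 122 ± 4.57 RPKM after treatment (SD, n = 3 each). The log2 fold change was 0.38 ± 0.06 (SE, 95% interval 0.24 to 0.52, limma-trend adjusted p = 0.00542). GSTP1 was called in each of the 15 other settings, with a log2 fold change of 0.33 to 0.41. Without the 2 libraries that stood apart it was 0.33 (limma-trend adjusted p = 0.0337). In the authors' deposited table its log2 fold change is 0.37, with an adjusted p of 0.00041.

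MGST1, a membrane-bound microsomal transferase that also reduces lipid peroxides, lies on chromosome 12 at 16347142 to 16609259. It measured 18.6, 19.4 and 19.2 RPKM in the controls and 21.1, 22.0 and 24.0 RPKM after arsenic trioxide, from 2797 to 3917 reads. Every treated library was above every control, and the means were 19.1 ± 0.396 and 22.3 ± 1.47 RPKM (SD, n = 3 each). The log2 fold change of 0.22 ± 0.07 (SE, 95% interval 0.06 to 0.37) did not pass after adjustment (limma-trend adjusted p = 0.0518). It was called with upper quartile factors (limma-trend adjusted p = 0.0391) and with limma-voom on the recovered reads (adjusted p = 0.0323), where 14.9% of tested genes were called higher, but not in the other 13 of the 15 alternatives, over which its adjusted p was 0.0323 to 0.174. Without control replicate 1 and arsenic trioxide replicate 3 the log2 fold change was 0.15. Other genes lie within the span of MGST1, but none shares an exon base with it in the annotation, and the same holds for the other 6 genes.

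GSTO1, the omega-class transferase that can reduce pentavalent methylated arsenic, lies on chromosome 10 at 104235356 to 104267459. It measured 44.7, 36.7 and 38.1 RPKM in control replicates 1, 2 and 3 and 37.4, 36.5 and 39.5 RPKM in the treated replicates. Control replicate 1 was the highest library, and the other 5 lay within 36.5 to 39.5 RPKM. Group means were 39.9 ± 4.28 and 37.8 ± 1.53 RPKM (SD, n = 3 each), with a log2 fold change of -0.07 (95% interval -0.27 to 0.13, limma-trend adjusted p = 0.571). That interval corresponds to a ratio of 0.832 to 1.09 on the RPKM + 1 scale. Without control replicate 1 the log2 fold change was 0.014.

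To place the 3 transferases among their relatives, the levels of all 12 glutathione transferase genes with a row were summed in each library. RPKM is scaled to the length of all annotated exons of a gene, here 7440 bases for MGST1, 1915 for GSTP1 and 1691 for GSTO1. The shares of different genes therefore depend on these annotated lengths, whether or not the transcripts use every exon. The sum was 184, 186 and 183 RPKM in the controls and 219, 211 and 226 RPKM after arsenic trioxide, so the treated libraries lay above all controls. GSTP1 made up 48.6%, 52.9% and 52.0% of this sum in the controls and 57.7%, 55.7% and 54.8% in the treated libraries. GSTO1 made up 24.4%, 19.8% and 20.9% in the controls and 17.1%, 17.3% and 17.5% in the treated libraries. The share of GSTP1 was thus 51.1 ± 2.28% against 56.1 ± 1.47% and that of GSTO1 21.7 ± 2.39% against 17.3 ± 0.21% (SD, n = 3 each), both without overlap. Shares of 1 sum are tied to each other: GSTP1 is the largest part of a sum that was higher after treatment, which lowers the share of a gene at an equal level, and the levels of GSTO1 itself overlapped. MGST1 had a share of 9.64% to 10.6% in all 6 libraries. For the sum and for the share of GSTP1, an exact two-sided permutation test gave p = 0.1, the smallest that 3 against 3 allows (0.2 adjusted with the Benjamini-Hochberg method over 10 such comparisons). That design cannot reach the threshold of 0.05.

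**Figure D2:**
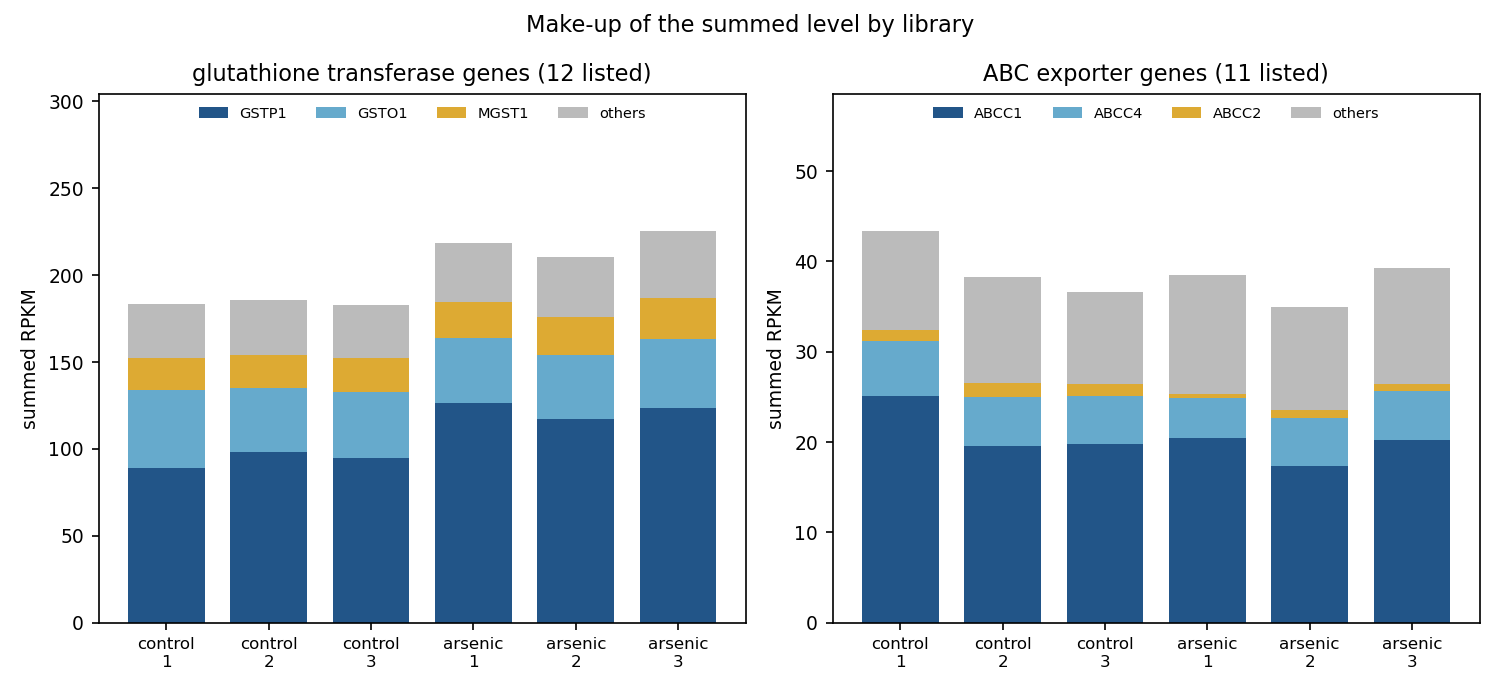
Stacked bars of summed RPKM (vertical axes from 0) in each library for 12 glutathione transferase genes (left) and 11 ABC exporter genes (right), split into the genes studied and all others. The transferase sum is 183 to 186 RPKM in control and 211 to 226 RPKM in treated libraries, while the exporter sums of the groups overlap.

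Of the pumps, ABCC1, which encodes the multidrug resistance protein MRP1 that exports glutathione conjugates across the plasma membrane, lies on chromosome 16 at 15949577 to 16143074. It measured 25.1, 19.6 and 19.8 RPKM in the controls and 20.4, 17.3 and 20.3 RPKM after arsenic trioxide. As for GSTO1, control replicate 1 was the highest, and the groups overlapped. The means were 21.5 ± 3.13 and 19.3 ± 1.74 RPKM (SD, n = 3 each), a log2 fold change of -0.14 (95% interval -0.41 to 0.13, limma-trend adjusted p = 0.402). Without control replicate 1 this became -0.028, and without arsenic trioxide replicate 2 it became -0.067.

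ABCC4, whose product MRP4 exports nucleotide analogues and organic anions, among them methylated arsenic conjugates, lies on chromosome 13 at 95019829 to 95301475. It measured 6.08, 5.40 and 5.35 RPKM in the controls and 4.44, 5.37 and 5.37 RPKM in the treated libraries. The groups overlapped, with 4 of the 6 libraries within 5.35 to 5.40 RPKM. The log2 fold change was -0.13 (95% interval -0.39 to 0.13, limma-trend adjusted p = 0.435). It was -0.051 without arsenic trioxide replicate 1, the lowest library, and -0.076 without control replicate 1, the highest. For ABCC1 and ABCC4 these intervals reach a ratio of 0.754 and 0.765 on the RPKM + 1 scale, so a fall of that size could not be told from no change here.

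ABCC2, whose product MRP2 is best known as the canalicular pump of liver cells that sends arsenic-glutathione complexes into bile, lies on chromosome 10 at 99782640 to 99852594 and had the lowest level of the 7. It measured 1.22, 1.57 and 1.32 RPKM in the controls and 0.489, 0.826 and 0.803 RPKM after arsenic trioxide. In reads this was 153, 190 and 186 against 68, 109 and 110, so every treated library was below every control. The means were 1.37 ± 0.185 and 0.706 ± 0.188 RPKM (SD, n = 3 each), a ratio of 0.515. On the log2 of RPKM + 1 scale, which understates changes of genes at this level, the log2 fold change was -0.48 ± 0.15 (SE, 95% interval -0.83 to -0.13, limma-trend adjusted p = 0.0551). ABCC2 therefore did not pass, and it entered the test only through its control libraries, since the treated mean lies below the filter of 1 RPKM. With limma-voom on the recovered reads the log2 fold change was -0.98 (adjusted p = 0.0044), in a fit where 16.3% of tested genes were called lower. It was also called, at a log2 fold change of -0.48, with no filter, with a filter at 0.1 RPKM and with median-ratio factors (limma-trend adjusted p = 0.0485, 0.0475 and 0.0485). The log2 fold change was -0.89 with a pseudocount of 0.1 and -0.16 with one of 5, and neither passed. Leaving out any 1 library gave limma-trend adjusted p-values of 0.0822 to 0.151. For ABCC2 the authors' deposited table has -0.97 as log2 fold change and an adjusted p of 0.000203. Of all genes with an adjusted p in the authors' deposited table, 12.7% are lower and 12.6% higher at 0.05, and of the 7 genes AQP3 and ABCC2 are lower and GSTP1 is higher.

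Summed over the 11 ABC exporter genes with a row, the level was 43.4, 38.3 and 36.6 RPKM in the controls and 38.4, 35.0 and 39.2 RPKM after treatment, and the groups overlapped (exact two-sided permutation p = 0.6, or 0.75 adjusted over the 10 comparisons). ABCC1 was the largest part in all libraries, with 49.6% to 57.9%. ABCC2 contributed 3.51 ± 0.663% in control and 1.89 ± 0.56% in treated libraries (SD, n = 3 each), again with no overlap (exact permutation p = 0.1, the smallest possible, or 0.2 adjusted). ABCC2 was thus a minor part of the summed RPKM of the listed exporters, at most 4.12% in any library.

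AQP3, an aquaglyceroporin that carries glycerol, hydrogen peroxide and arsenite, lies on the minus strand of chromosome 9 at 33441154 to 33447633. It measured 2.62, 2.12 and 2.75 RPKM in the controls and 1.65, 1.34 and 1.57 RPKM after arsenic trioxide, from 83 to 182 reads per library. Every treated library was below every control, and the means were 2.50 ± 0.334 and 1.52 ± 0.164 RPKM (SD, n = 3 each), 1.64-fold lower. On the log2 of RPKM + 1 scale, which understates changes at this level, the log2 fold change was -0.47 ± 0.13 (SE, 95% interval -0.79 to -0.15, limma-trend adjusted p = 0.0431). AQP3 no longer passed when any 1 of the 6 libraries was left out (limma-trend adjusted p = 0.0522 to 0.131), with no filter (0.0662) and with a filter at 0.1 RPKM (0.059). AQP3 was called with both scalings, with pseudocounts of 0.1 (-0.68) and 5 (-0.20), and with limma-voom on the recovered reads (-0.71, adjusted p = 0.0128). The direction was the same in all 15 alternatives, and without control replicate 1 and arsenic trioxide replicate 3 the log2 fold change was -0.46 (adjusted p = 0.15). In the authors' deposited table AQP3 has a log2 fold change of -0.73 and an adjusted p of 0.00573.

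**Figure D3:**
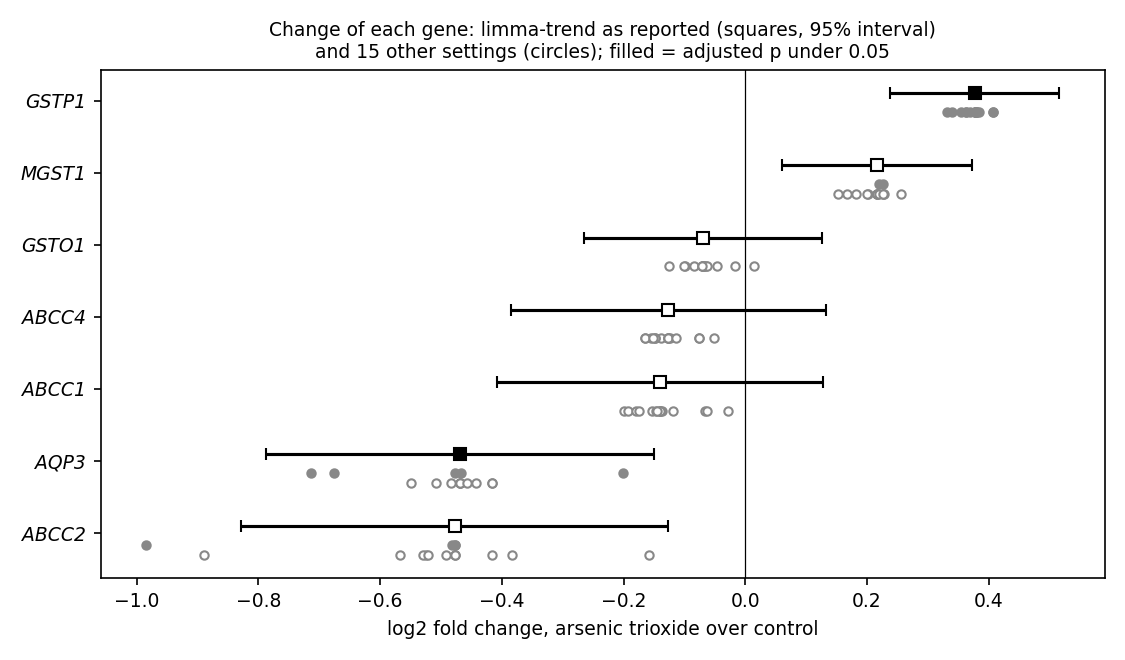
Log2 fold change of each measured gene (horizontal axis, arsenic trioxide over control) from limma-trend with its 95% interval (squares) and in 15 other settings (circles), filled where the adjusted p was under 0.05. GSTP1 is filled throughout, AQP3, ABCC2 and MGST1 change between filled and open, and ABCC1, ABCC4 and GSTO1 are open in each setting.

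In controls the order of levels was GSTP1, GSTO1, ABCC1, MGST1, ABCC4, AQP3 and ABCC2, and the libraries of neighbours in this order did not overlap. This order is one of RPKM and depends on the annotated exon lengths, such as 7440 bases for MGST1 and 7575 for ABCC1. The narrowest gap was between ABCC1, at 19.6 to 25.1 RPKM, and MGST1, at 18.6 to 19.4 RPKM. After arsenic trioxide these exchanged places, with MGST1 at 21.1 to 24.0 RPKM and ABCC1 at 17.3 to 20.4 RPKM. Within a library the ratio of MGST1 to ABCC1 was 0.743, 0.992 and 0.968 in the controls and 1.03, 1.27 and 1.18 in the treated libraries. This pair was picked after its values were seen, so the ratio is a description with no test. GSTP1 stood at the 98.3 percentile of tested genes by control level and ABCC2 at the 9.28 percentile. These percentiles are among the 16803 tested genes and leave out the rest of the 23858 listed genes, whose mean was under 1 RPKM.

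Promoter sequences are shown for GSTP1, which was called higher, for its relative GSTO1, which was not called, and for AQP3 and ABCC2, whose treated libraries lay below the controls. RefSeq promoter windows (GRCh38.p14, 250 bases before to 50 after the start) were found for 8 of the 9 genes, not for ABCC1. They were searched on both strands for the core of the antioxidant response element, TGACNNNGC, which NRF2 with its small MAF partners can bind. They were also searched for TGCNCNC, a looser form of the metal response element core TGCRCNC (R is A or G), which MTF1 can bind. Each sequence below gives the 250 bases before the start, 5′ to 3′ on the gene's strand, with both kinds of match in capitals.
GSTP1, chr11:67583562-67583811, plus strand: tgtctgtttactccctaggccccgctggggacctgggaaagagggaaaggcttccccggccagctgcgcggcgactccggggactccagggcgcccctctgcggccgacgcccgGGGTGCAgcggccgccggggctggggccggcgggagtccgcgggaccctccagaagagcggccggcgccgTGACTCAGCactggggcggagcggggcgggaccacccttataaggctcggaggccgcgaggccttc
GSTO1, chr10:104254642-104254891, plus strand: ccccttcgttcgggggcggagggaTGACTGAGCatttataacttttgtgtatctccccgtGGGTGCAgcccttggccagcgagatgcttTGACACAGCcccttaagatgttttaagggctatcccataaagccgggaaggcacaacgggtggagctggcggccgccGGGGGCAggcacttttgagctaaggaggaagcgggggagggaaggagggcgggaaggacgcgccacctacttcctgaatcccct
AQP3, chr9:33447594-33447843, minus strand: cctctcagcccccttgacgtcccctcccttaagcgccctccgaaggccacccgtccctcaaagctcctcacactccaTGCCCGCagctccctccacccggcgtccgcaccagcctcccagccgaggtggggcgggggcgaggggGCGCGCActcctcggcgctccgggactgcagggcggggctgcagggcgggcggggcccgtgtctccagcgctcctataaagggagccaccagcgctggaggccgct
ABCC2, chr10:99782390-99782639, plus strand: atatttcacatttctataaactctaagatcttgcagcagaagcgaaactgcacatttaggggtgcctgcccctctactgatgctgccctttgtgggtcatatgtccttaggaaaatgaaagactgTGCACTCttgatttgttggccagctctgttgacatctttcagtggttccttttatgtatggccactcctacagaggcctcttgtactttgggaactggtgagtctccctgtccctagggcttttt

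The antioxidant core matched once in GSTP1 (TGACTCAGC, 66 to 58 bases before the start) and at 2 places in GSTO1 (TGACTGAGC and TGACACAGC). It also matched in ABCC4 and in 1 of the 3 windows of MGST1, and it was not among the letters of the AQP3, ABCC2, AS3MT and AQP9 windows. Of all 35116 windows, 13.3% hold it. Whether these matches play a part in the level of any of the genes was not tested. Metal cores were in the windows of GSTP1 (1), GSTO1 (2), ABCC2 (1), ABCC4 (1) and AQP3 (4, of which 2 lie across or after the start and are not printed), and in 2 of the MGST1 windows, against 55.9% of all windows. No match of one core overlapped a match of the other. These are matches of letters and say nothing about binding.

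The wider pathway was followed in 6 lists of other genes, which were chosen with earlier results of these data known. Their counts are given beside the share of all tested genes called, 12.0% higher and 13.4% lower, and are descriptions with no test of the list. In the list of other methylation and reduction genes 3 of 11 tested members rose and 2 fell (median log2 fold change 0.01), and 2 of 11 is near the background of 13.4%. PNP, a purine phosphorylase that can also reduce arsenate, fell from 69.1 ± 1.34 to 26.5 ± 0.658 RPKM (SD, n = 3 each), a log2 fold change of -1.35 (limma-trend adjusted p = 7.17e-05). MAT2A, which makes the methyl donor S-adenosylmethionine, fell from 186 ± 5.04 to 120 ± 11.8 RPKM (-0.64, adjusted p = 0.00246). AHCYL1, a relative of the enzyme that clears S-adenosylhomocysteine, rose from 28.1 ± 0.44 to 38.6 ± 0.972 RPKM (0.44, adjusted p = 0.00183), and TXNRD1, which keeps thioredoxin reduced, from 48.7 ± 1.80 to 97.5 ± 17.5 RPKM (0.97, adjusted p = 0.00248). These 4 calls held in each of the 15 other settings. GSR, glutathione reductase, was also called higher, at 0.59 as log2 fold change (adjusted p = 0.0149 with limma-trend). Its control libraries had 32.1, 27.0 and 32.2 RPKM, and its treated libraries 49.1, 38.6 and 51.6 RPKM. The count of 3 higher was 2 without arsenic trioxide replicate 1, and also without control replicate 1 and arsenic trioxide replicate 3 together.

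Among other glutathione transferases 1 of 5 tested members rose and 0 fell (median log2 fold change 0.22), which is near the background of 12.0%. That was GSTZ1, an enzyme of tyrosine breakdown, which measured 2.12, 2.20 and 1.64 RPKM in the controls and 3.52, 3.998 and 3.31 RPKM after arsenic trioxide (0.63 as log2 fold change, limma-trend adjusted p = 0.0158). GSTZ1 did not pass when control replicate 3 (limma-trend adjusted p = 0.0518) or arsenic trioxide replicate 2 (0.0548) was left out, nor without control replicate 1 and arsenic trioxide replicate 3 together (0.0536). GSTM4 (0.28), MGST3 (0.22) and MGST2 (0.10) did not pass. Of other ABC exporters only ABCC5 and ABCC10 passed the filter. ABCC5, an exporter of cyclic nucleotides, was called higher (log2 fold change 0.33, limma-trend adjusted p = 0.0401), a call lost in 11 of 15 alternatives, including each of those that left out 1 library (adjusted p = 0.0569 to 0.122). ABCC10 was at -0.09.

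On the uptake side, AQP11, a channel of intracellular membranes and the 1 tested gene among other aquaporins, fell from 6.59, 8.45 and 7.38 RPKM in the controls to 3.46, 4.33 and 3.15 RPKM (-0.87 as log2 fold change, limma-trend adjusted p = 0.00563). It was called in all 15 alternatives. Of 5 tested carriers known or proposed to take up arsenic, 3 were lower and 0 higher (median log2 fold change -0.48), where 13.4% of all tested genes were lower. SLC20A1, a phosphate carrier, fell from 83.6 ± 3.50 to 60.3 ± 10.1 RPKM (-0.48, limma-trend adjusted p = 0.0222), its relative SLC20A2 from 12.1 ± 0.948 to 9.44 ± 0.727 RPKM (-0.33, adjusted p = 0.0367), and the fructose carrier SLC2A5 from 5.14 ± 0.875 to 2.48 ± 0.815 RPKM (-0.84, adjusted p = 0.0255). The count of 3 was 1 without control replicate 1 or 2 or arsenic trioxide replicate 1, and 0 without control replicate 3 or arsenic trioxide replicate 2. SLC2A3, a glucose carrier, was at 14.5, 8.45 and 9.26 RPKM in the controls and 15.1, 15.5 and 16.03 RPKM in the treated libraries (0.53, limma-trend adjusted p = 0.0669), and was called higher without control replicate 1 (adjusted p = 0.00486). SLC2A1, also a glucose carrier, was at 41.2, 22.0 and 22.6 RPKM in the controls and 17.4, 13.8 and 19.5 RPKM in the treated libraries. It was not called either (-0.68, limma-trend adjusted p = 0.0844).

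In the glutathione supply list 4 of 6 tested members rose and 0 fell (median log2 fold change 0.83), where 12.0% of all tested genes rose, a count that was also 4 when any 1 library was left out. The list holds the cystine carrier subunits SLC7A11 (2.88) and SLC3A2 (0.98) and the subunits of glutamate-cysteine ligase GCLM (1.94) and GCLC (0.68, from 5.55 ± 0.809 to 9.46 ± 1.06 RPKM, limma-trend adjusted p = 0.00979). For comparison, HMOX1 and MT2A, both known to respond to arsenic, had log2 fold changes of 7.13 and 2.73, while the largest rise among the 7 arsenic handling genes was 0.38.

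**Figure D4:**
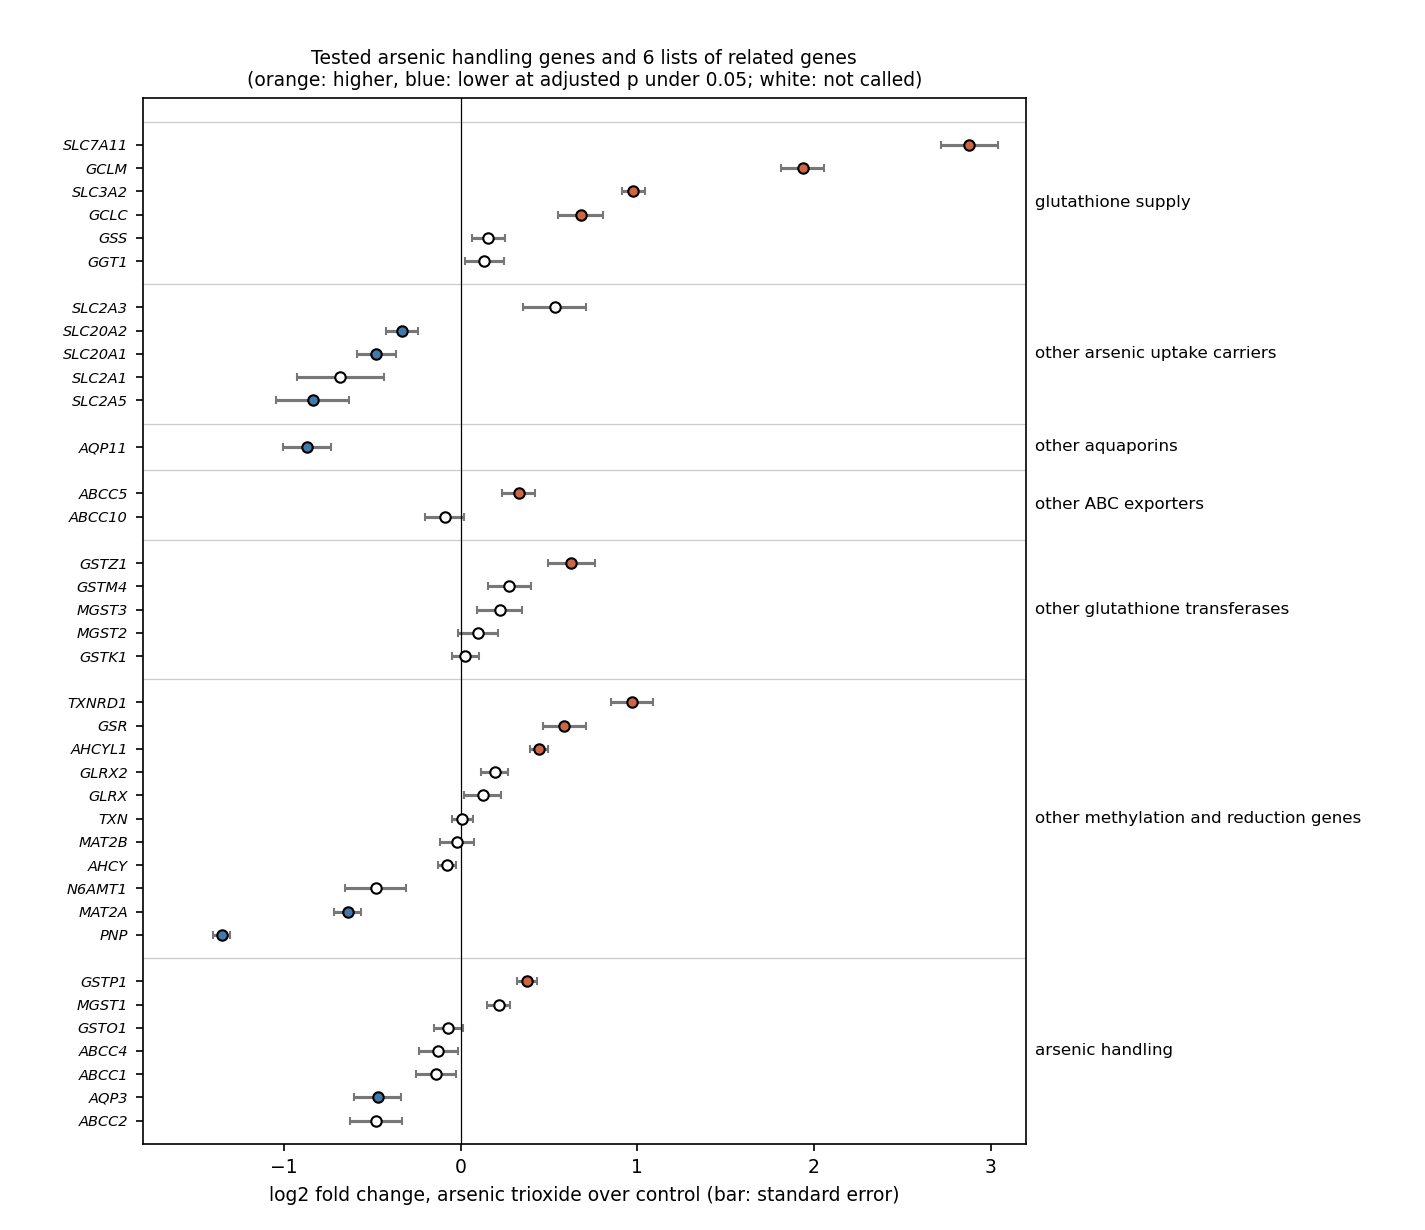
Log2 fold change (horizontal axis, arsenic trioxide over control, bars are standard errors) of the 7 tested arsenic handling genes and of the tested genes in 6 related lists, coloured where limma-trend gave an adjusted p under 0.05 (orange higher, blue lower). All 6 glutathione supply genes lie right of 0, with 4 called, while 4 of the 5 other uptake carriers lie left of it, with 3 called.

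Genes whose log2 of RPKM + 1 followed the called ones most closely over the 6 libraries were also looked up, as a description in which the difference between groups sets most of the correlation. Tested genes with a clone-based symbol were left out of this search and of its counts. For GSTP1 the closest were ZNF425, SEC24D and TTC23 (Pearson's r of 0.997, 0.997 and 0.996), and 30 of the searched genes had an r over 0.99. SEC24D, a coat protein of vesicles that leave the endoplasmic reticulum, measured 5.41, 6.38 and 6.33 RPKM in the controls and 12.6, 10.4 and 11.8 RPKM after arsenic trioxide. For AQP3 the closest were EPHA1, DNAJC11 and RRP15 (0.994, 0.993 and 0.992), and 8 of the searched genes passed 0.99. EPHA1, an ephrin receptor at a level like that of AQP3, measured 1.53, 1.18 and 1.81 RPKM in the controls and 0.625, 0.339 and 0.635 RPKM in the treated libraries.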

How the data were processed

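The authors deposited 1 table with RPKM of 6 libraries, in which duplicate reads had been removed per the file headers. HISAT2 2.1.0, HTSeq, DESeq2 and the build hg38 are listed, per the submitters' processing notes, without roles. The same deposited table holds the authors' mean normalized signal, log2 fold change, its standard error and test score, and p-values. These served only as quoted values, and the mean also settled exon lengths. The direction of the deposited fold change was read from the values.

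RPKM values were turned into whole reads with GENCODE 29 exon lengths and 1 total per library. All 6 values were whole within 0.01 reads for 93.0% of genes, and for 100% once the deposited mean settled the length. The lowest total of a listed gene was 21 reads over the 6 libraries. Libraries of a group differed beyond sampling noise (chi-square per degree of freedom 5.48 to 13.5).

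Limma 3.58.1 (R 4.3.3) with trend was run on log2 of RPKM + 1 with treatment as the only term, for genes whose mean reached 1 RPKM. It was also run on simulated reads with the same dispersion for all genes, which does not show its error rate in these libraries. P-values were adjusted over all tested genes with the Benjamini-Hochberg method. Shares and sums were compared with exact permutation tests over 20 assignments. The genes named are the 9 members, in each list up to 4 with the smallest p-values, HMOX1 and MT2A. Also named are the 3 tested genes most correlated with the called members of largest rise and fall, leaving out clone-based symbols. GSR and SLC2A1 are named in addition, to complete the calls and the carriers of their lists. The members and lists were chosen with earlier results of these data known. Alternatives were 2 scalings, 2 filters, 2 pseudocounts, a replicate block, limma-voom on the reads, and leaving out libraries. One marker list is not reported here.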

Additional observations from a re-analysis of the deposited data

How the results depend on the processing

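GSTP1 was called higher in all 15 alternatives, and ABCC1, ABCC4 and GSTO1 in 0 of them. The log2 fold change of GSTO1 changed sign without control replicate 1 (0.014, range -0.13 to 0.014 when 1 library was left out). AQP3 was not called with no filter or with the filter at 0.1 RPKM (-0.47 in both), without control replicate 1 and arsenic trioxide replicate 3 (-0.46), or without any 1 library (-0.55 to -0.42). ABCC2 was called with median-ratio factors, no filter and the filter at 0.1 RPKM (-0.48 in each) and with limma-voom (-0.98), and MGST1 with upper quartile factors (0.22) and limma-voom (0.23). The count of the 7 genes called lower was accordingly 2 with median-ratio factors and with limma-voom, and 0 without any 1 library and without the 2 that stood apart, and the count called higher was 2 with upper quartile factors and limma-voom. The cause was not tested.

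The deviations of same-numbered libraries from their group means had correlations of -0.0852, 0.148 and -0.0829. For control replicate 1 with arsenic trioxide replicate 3 the correlation was 0.221. With 3 libraries per group, such values cannot settle whether the numbers pair the libraries, and the labels do not say. With the replicate number as a block AQP3 was not called (-0.47, limma-trend adjusted p = 0.0729), which left 0 of the 7 genes lower and 1 higher, 1460 higher and 1616 lower genes in all, 0 other ABC exporters called higher and 2 uptake carriers called lower.

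Leaving out 1 library gave 1331 to 1525 higher and 1427 to 1908 lower genes in all, against 2021 and 2252, and without both libraries that stood apart there were 1200 and 1484. Each such fit has fewer samples. With 1 library left out, 2 to 3 other methylation and reduction genes and 0 to 1 other glutathione transferases were called higher. The same fits called 0 other ABC exporters and 0 to 1 uptake carriers higher, and 0 to 3 uptake carriers lower. Without both libraries 2 other methylation and reduction genes, 0 other glutathione transferases, 0 other ABC exporters and 1 uptake carrier were higher. A planned edgeR test on recovered reads was not run because the deposited unit is RPKM. With 83 to 182 reads for AQP3 and 68 to 190 for ABCC2, counting error weighs most on these 2 genes.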
